A study of Taeniopygia guttata with 134 samples.

Results

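In the brain of male zebra finches (Taeniopygia guttata), 68 of 18618 measured genes formed a moderate gradient. Their transcripts were most abundant in the nucleus taeniae (TN), less so in the bed nucleus of the stria terminalis (abbreviated NST) and least in the hypothalamus (HY). The members were chosen by measured values. Counts were expressed as log2 CPM (counts out of 1000000 counts of the library, with 0.5 added to each count) and averaged over the libraries of control-injected males in each region. A member had a mean of at least 1 on this scale in TN, stood above HY in NST by at least 0.4 and less than 1, and stood above NST in TN by at least 0.4 and less than 1. Its mean difference between males given lipopolysaccharide (LPS) and control males, taken over the 4 social settings, was smaller than 0.4 in size in all 3 regions. The mirrored rule, with both steps reversed, was met by 318 genes, called the falling genes here. Both counts depend on the scaling of the libraries, with 114 rising and 242 falling genes under TMM and 109 and 244 under RLE.

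The hypothalamus controls hormone release, body temperature, feeding and reproductive behaviour. The bed nucleus of the stria terminalis belongs to the extended amygdala, connects the amygdala with the hypothalamus and takes part in social and stress-related behaviour. The nucleus taeniae of birds lies in the telencephalon and is regarded as the counterpart of part of the mammalian medial amygdala. All 3 are nodes of the network that has been described for social behaviour in vertebrates, and they differ in developmental origin and cell composition.

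The birds had been injected either with LPS, which comes from the outer membrane of bacteria and acts as an endotoxin, or with a control. Each male was then alone (ISO), stayed throughout with a female it knew (KFC), was brought back together with a known female (KF) or was put with an unfamiliar one (NF). The question behind the design was whether social surroundings change what an endotoxin challenge does to gene expression in the brain. The sources used here give no dose, time after injection, age or content of the control injection, and no strain or genetic manipulation is named. All ISO and KF groups had 6 libraries per region, and all KFC groups had 5. The NF setting gave 4 LPS libraries and 5 control libraries in TN, 6 and 6 in NST, and 5 and 6 in HY. With the number in each label taken to mark a male, the 134 libraries came from 46 males, of which 42 gave all 3 regions.

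Libraries of TN held 9049816 to 14096470 counts with a median of 11575999, those of NST 7902418 to 11879211 with a median of 9340586, and those of HY 7339294 to 13159755 with a median of 8794615. The files do not pair gene identifiers with names, and a reference table matched 0 of the 18618 identifiers, so genes are given by identifier and what each encodes is not stated. For the same reason the regions could not be checked against marker genes. Whole profiles of 3 libraries had stood apart from their region in earlier work on these counts. These were NST of male 3 (NF, LPS), NST of male 4 (NF, control) and HY of male 44 (KF, control). Some values are also given without them, where this is stated, and all others include them.

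Of the genes in the table, 86 met the level and both steps, and the LPS condition left out 18 of these. Among the 18, the LPS difference reached 0.4 in size in 11 genes in TN (6 higher and 5 lower in LPS males), in 6 in NST (5 higher, 1 lower) and in 10 in HY (7 higher, 3 lower). It did so in 1 region only for 10 genes and in all 3 regions for 1. The limits cut through a continuous cloud of genes, as the plot of region differences shows. At the lower limit of the step between NST and HY the nearest member stood at 0.4044 and the nearest gene outside at 0.3954, and at the upper limit at 0.9854 and 1.0068. For the step between TN and NST the nearest pairs were 0.4052 and 0.3996 at the lower limit, and 0.9866 and 1.0015 at the upper. The lowest member in TN had a mean log2 CPM of 1.13, against 0.94 for the nearest gene below the limit. The largest LPS difference among members was 0.38 in size, against 0.43 for the nearest gene outside. All 68 members passed the filter on low counts in each region, so none was lost from the tests.

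**Figure D1:**
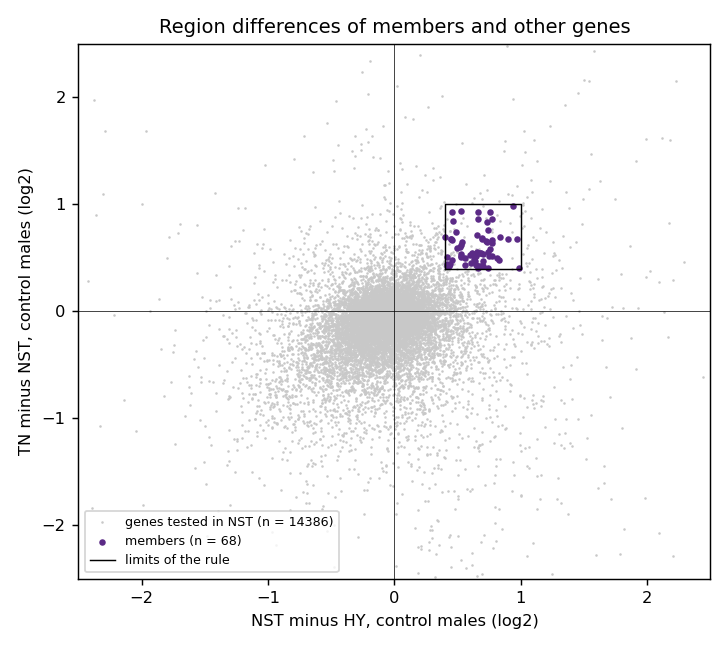
Difference between regions of mean log2 CPM in control males, TN minus NST on the vertical axis against NST minus HY on the horizontal axis, for 14386 genes tested in NST (grey) and the 68 members (violet). The box marks the limits of the rule, and 110 genes lie outside the axes, which end at 2.5. Most members sit in the lower part of the box, with other genes on all sides of it.

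Members spanned a wide range of levels. In control males their mean log2 CPM had a median of 5.95 in TN with a range of 1.13 to 9.87, a median of 5.21 in NST with a range of 0.20 to 9.19, and a median of 4.60 in HY with a range of -0.46 to 8.50. All members together took a median of 0.778% of the counts of LPS libraries and 0.878% of those of control libraries in TN, 0.564% and 0.549% in NST, and 0.361% and 0.362% in HY. Levels are per library and not per transcript length, so they do not rank the genes against each other. In pieces of tissue such as these, more cells of a type and more RNA per cell cannot be told apart.

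The size of the steps follows from the rule and is given as a description. In control males TN stood above NST by a median of 0.55 on the log2 scale, NST above HY by 0.65, and TN above HY by 1.18, with a range of 0.84 to 1.93. As folds, TN over HY ran from 1.79 to 3.81 with a median of 2.27. Over the 14140 genes tested in all 3 regions the median of TN minus HY was -0.15, so that members stood 1.33 above the typical gene. The step between NST and HY was the larger one in 41 of 68 members. LPS males, whose levels the rule held to within 0.4 of the controls, had median steps of 0.47 between TN and NST and 0.66 between NST and HY, and 1.11 between TN and HY. Both steps were above 0 in all 68 members in LPS males, and 37 had both at 0.4 or more. The step between NST and HY was the larger one in 49 members in LPS males. LPS minus control differences had medians of -0.08 in TN, 0.05 in NST and 0.03 in HY, and were above 0 in 19, 43 and 43 of 68 members. Over all 14140 genes the medians were 0.03, -0.01 and 0.00. These LPS differences were limited by the rule, and no test is given on them.

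In LPS libraries 23 of 68 members had every TN library above every HY library, and 24 of 68 did in control libraries. Over the genes tested in all 3 regions 0.686% did so in LPS libraries and 0.771% in control libraries. The rule chose members on this difference, so the higher share among them is not a result. No member had every NST library above every HY library, where the shares over all genes were 0.0212% in LPS and 0.0636% in control libraries. No member had every TN library above every NST library either, with shares over all genes of 0.0778% and 0.00707%. At each single step the libraries of neighbouring regions thus overlapped for every member. With shares this low over all genes and steps kept below 1 by the rule, that overlap is not a result about the members.

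ENSTGUG00000006053 had the largest difference between TN and HY. In TN it ran from 26.2 to 106 CPM in LPS males (median 68.5, n = 21) and from 46.5 to 122 CPM in control males (median 73.0, n = 22). In NST it ran from 21.9 to 55.5 CPM in LPS males (median 33.96, n = 23) and from 23.4 to 71.2 CPM in control males (median 38.2, n = 23). In HY it ran from 11.4 to 37.5 CPM in LPS males (median 21.0, n = 22) and from 11.98 to 30.9 CPM in control males (median 19.4, n = 23). Control libraries of TN were all above those of HY, whereas LPS libraries of the same regions overlapped, and both sets of NST libraries overlapped with their neighbours. Its mean log2 CPM in control males was 0.99 higher in TN than in NST and 0.94 higher in NST than in HY, close to the upper limit at both steps, and 1.93 higher in TN than in HY, or 3.81-fold. Within males its level followed the order TN, NST, HY in 17 of 20 LPS males and 21 of 22 control males.

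ENSTGUG00000005418 came next. In TN it ran from 25.5 to 73.2 CPM in LPS males (median 44.8, n = 21) and from 20.7 to 100.3 CPM in control males (median 36.5, n = 22). In NST it ran from 13.3 to 32.4 CPM in LPS males (median 22.9, n = 23) and from 11.8 to 53.04 CPM in control males (median 20.2, n = 23). In HY it ran from 9.74 to 27.2 CPM in LPS males (median 14.6, n = 22) and from 6.35 to 18.9 CPM in control males (median 13.7, n = 23). Control libraries of TN were all above those of HY, LPS libraries of these regions overlapped slightly, and NST lay between with overlap on both sides. Its TN mean stood 0.93 above NST, and NST 0.75 above HY, on the log2 scale in control males, a 3.20-fold difference between TN and HY. The order TN, NST, HY held in 19 of 20 LPS males and 21 of 22 control males.

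**Figure D2:**
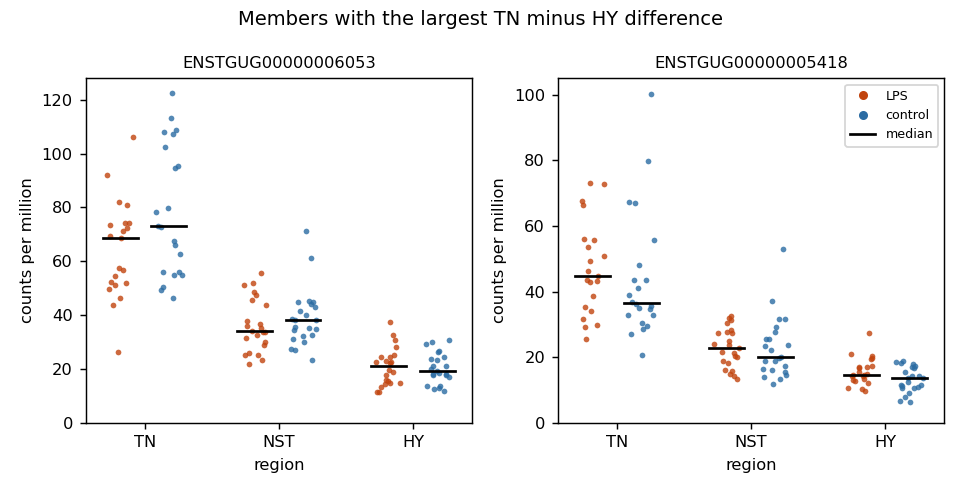
Level in CPM of the 2 members with the largest TN minus HY difference, by region, with LPS libraries (orange) left of control libraries (blue), 1 point per library and a bar at the median. Medians fall to 33.96 and 38.2 CPM in NST for ENSTGUG00000006053, against 68.5 and 73.0 CPM in TN, with HY lowest and wide overlap between neighbouring regions.

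Averaged over the members, the gradient could be followed in single males. The control males are those whose means chose the members, and the rule held the LPS males close to them, so the order of the regions is a description here and not a finding. The mean log2 CPM over the 68 members in a library had a median of 5.76 in TN (5.30 to 6.04, n = 43), 5.23 in NST (4.78 to 5.78, n = 46) and 4.60 in HY (4.13 to 4.91, n = 45). The lowest HY value was that of male 44, and without it HY started at 4.20. No library of TN overlapped with one of HY, while NST libraries reached into the range of both other regions. TN was above HY and NST was above HY in all 42 males with 3 regions (20 LPS and 22 control). NST was above TN in 4 of them. These were male 6 (ISO, LPS; 5.30 in TN and 5.70 in NST), male 48 (KF, LPS; 5.69 and 5.78), male 4 (NF, control; 5.65 and 5.67) and male 63 (KFC, control; 5.49 and 5.71). With another scaling of the libraries, by TMM, 5 males had NST above TN. The NST library of male 4 is one of those that stood apart, and without such libraries NST was above TN in 3 of 40 males.

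Where NST fell between the other regions differed widely between males. With HY set at 0% and TN at 100%, the NST mean lay at a median of 54.4% of the way, from 8.16% to 160%. Its median was 60.4% in LPS males and 50.6% in control males. Single members were noisier than their mean. The number of members in the order TN, NST, HY within a male ran from 9 to 63 of 68, with a median of 53.5. The spread of the library mean was larger in NST, with an SD of 0.27 on the log2 scale, than in TN (SD 0.17) and HY (SD 0.15).

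**Figure D3:**
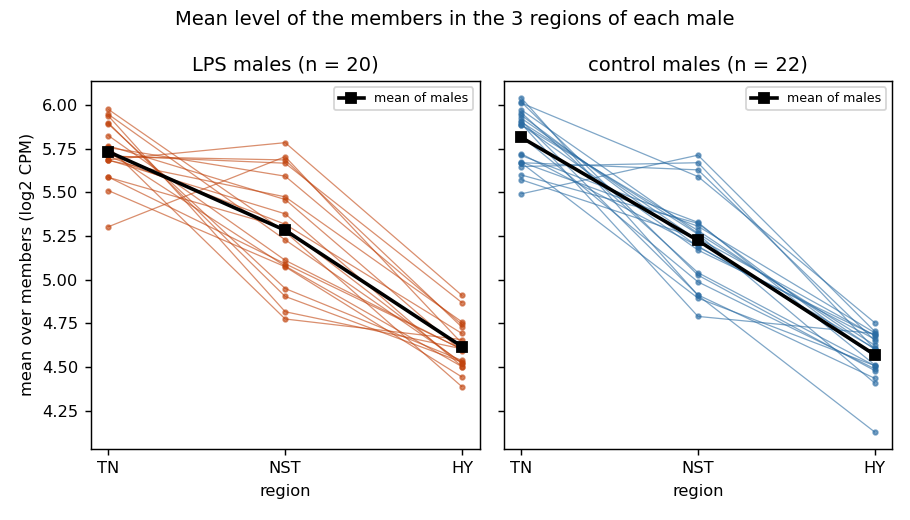
Mean log2 CPM over the 68 members in TN, NST and HY of each male with all 3 regions, LPS males (n = 20) on the left and control males (n = 22) on the right, with the mean of males in black. The rule fixed the mean order in control males. TN is above HY in every male, and NST is above TN in 2 LPS and 2 control males.

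The members did not vary independently between males of the same group. After the mean of each group was removed, pairs of members had a median Pearson r across libraries of 0.412 in NST, against 0.031 for pairs of all tested genes. In TN the medians were 0.145 and 0.017, and in HY 0.152 and 0.026. Pairs of falling genes had a median r of 0.214 in NST, 0.162 in TN and 0.228 in HY, so that members had the higher median in NST and the lower one in TN and HY. In NST 89.7% of pairs of members had a positive r, against 56.1% of pairs of all tested genes. Without the libraries that stood apart the median r between members was 0.421 in NST and 0.129 in HY. Each r is over 46 libraries in NST, 43 in TN and 45 in HY, and the genes of a library share its depth and dissection. These correlations are descriptions and carry no test.

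How closely single members followed the rest also differed between regions. The r of a member with the mean of the other members had a median of 0.69 in NST, with a range of -0.24 to 0.95, and was above 0 in 65 members and above 0.5 in 47. In TN the median was 0.53 (-0.49 to 0.88), with 51 members above 0 and 35 above 0.5. In HY it was 0.41 (-0.30 to 0.82), with 62 above 0 and 28 above 0.5. In TN the r was thus above 0 in 51 members and below 0 in 17. Some on each side were near 0, such as 0.02 for ENSTGUG00000003828 and -0.03 for ENSTGUG00000011990. Split by this sign, which these same values set, pairs had a median r of 0.37 among the 51 and 0.28 among the 17. In NST 14 of the 17 had an r above 0 with the other members.

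Members also varied against the falling genes, most in NST and, with all libraries, least in HY. Pairs of a member and a falling gene had a median r of -0.11 in TN, -0.19 in NST and -0.05 in HY, with 64.3%, 76.2% and 56.8% of pairs negative. Without the libraries that stood apart the median was -0.19 in NST and -0.11 in HY, with 75.7% and 64.9% of pairs negative, so the HY value rested in part on male 44. In TN the 51 members with an r above 0 to the other members had a median r of -0.44 with the mean of the falling genes. For the 17 with an r below 0 it was 0.22. The mean over all members had an r of -0.64 with that of the falling genes in TN. The opposite signs of the 51 and the 17 members thus follow in part from how the members were split. The same r between means was -0.69 in NST and -0.13 in HY. Without the 2 libraries whose member mean lay farthest from the median it was -0.42 in HY. The spread of members within groups was above the median of all tested genes in 48 of 68 members in TN, 57 in NST and 44 in HY. Members had a median SD within groups of 0.42 in TN, 0.42 in NST and 0.37 in HY on the log2 scale, and all genes tested in the 3 regions had 0.34, 0.31 and 0.34. The falling genes had higher medians than the members, of 0.52, 0.48 and 0.48.

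**Figure D4:**
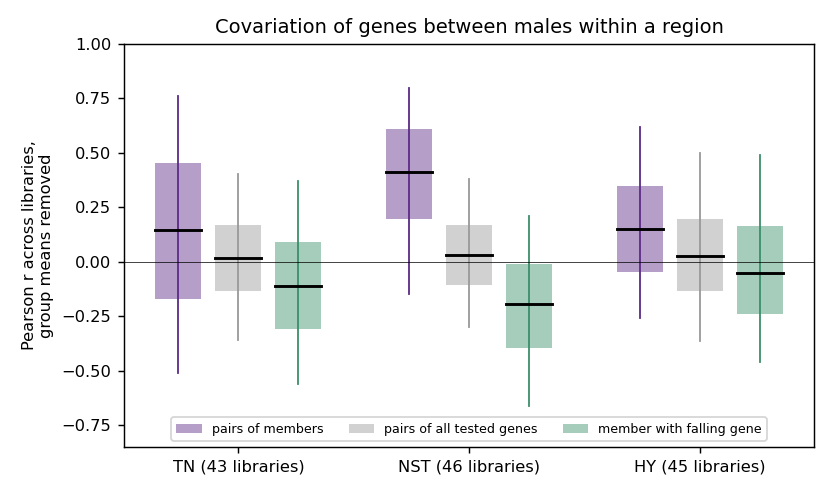
Pearson r between genes across the libraries of a region after removal of group means, for pairs of members (violet), pairs of all tested genes (grey) and pairs of a member and a falling gene (green). Boxes span the quartiles, black bars mark medians and thin lines run from the 5th to the 95th percentile. Pairs of members in NST stand highest, with a median of 0.412.

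The steps were also taken within each combination of setting and injection. Their direction is a description, since the rule required it of the mean of control males and kept LPS males near that mean. Both steps of the group means were above 0 in all 8 groups for 50 of 68 members. In LPS males both were above 0 for 67 members in ISO, 53 in KFC, 65 in KF and 68 in NF. In control males the counts were 68 in ISO, 67 in KFC, 67 in KF and 68 in NF. The step between TN and NST had a median of 0.47 in ISO, 0.29 in KFC, 0.30 in KF and 0.76 in NF in LPS males. In control males it was 0.60 in ISO, 0.51 in KFC, 0.61 in KF and 0.55 in NF. The step between NST and HY was 0.54, 0.76, 0.81 and 0.55 in LPS males of the 4 settings in this order, and 0.59, 0.65, 0.69 and 0.58 in control males.

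The test of whether the steps depended on setting and injection together found none among the members. By limma on differences within males, 0 of 68 members passed the adjusted threshold at each step. At an unadjusted p under 0.05 there were 2 members for TN minus NST, 3 for NST minus HY and 0 for TN minus HY, against 3.91%, 2.41% and 2.92% of all genes tested. This test was added after the group values had been seen. In control males alone, edgeR's quasi-likelihood test with the male as a block called 0 members for a dependence of the steps on setting (all genes: 0.0136% called for TN minus NST, 0% for NST minus HY and 0% for TN minus HY). At an unadjusted p under 0.05 it gave 3, 2 and 1 members, against 2.38%, 3.83% and 3.8% of all genes. The rule used the mean steps of these same control libraries, so these counts are not independent of the choice of members. Fitted to males of both injections, the test called 0 members and 0 of 15097 genes for each difference. At an unadjusted p under 0.05 that fit gave 8, 4 and 2 members, against 1185, 1218 and 731 of 15097 genes. In the fit to control males, leaving out 1 male gave calls of members in 4 cases. The calls were of ENSTGUG00000013336, alone or with ENSTGUG00000009647, and both are described below. In these fits 8 to 13 of the 14658 to 14758 genes tested were called.

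Within single regions, edgeR called no member for a dependence on setting over the 4 settings, and DESeq2 called a few. The interaction of LPS with setting called 0 of 68 members in TN, NST and HY by edgeR's quasi-likelihood test (0% of all genes in each region). At an unadjusted p under 0.05 there were 0 members in TN, 4 in NST and 1 in HY, against 4.73%, 3.87% and 4.88% of all genes. Among control males the effect of setting called 0 members in each region (0% of all genes in each), with 2 in TN, 2 in NST and 1 in HY at an unadjusted p under 0.05 and 4.97%, 4.51% and 5.74% of all genes. Over both injections it also called 0 members in each region (0.0417% of all genes in NST, 0% in TN and HY). Unadjusted, it gave 7 members in TN, 10 in NST and 5 in HY, against 8.96%, 12% and 4.2% of all genes. For control males DESeq2 was fitted to control libraries alone, whereas edgeR used all 8 groups. It called 2 members in NST and 0 in TN and HY, against 0.243%, 0.0343% and 0.0208% of all genes. The 2 were ENSTGUG00000013336 and ENSTGUG00000009647. The rule used the mean of these same control libraries, so the counts in control males, by edgeR or DESeq2, are not independent of the choice of members. Over both injections DESeq2 used additive terms for injection and setting. It then called 2 in TN (ENSTGUG00000004993 and 1 other), 1 in NST (ENSTGUG00000013336) and 0 in HY, against 0.308%, 0.966% and 0% of all genes.

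Males that stayed with a known female differed from males that were brought back to one in 2 members, both in NST and both higher in KFC males. That is 2 of 68 members, against 0.473% of all genes in NST (0.445% that were higher in KFC), by edgeR's quasi-likelihood test over both injections. The rule's NST mean took in the control libraries of KFC, which were high for both genes. The share of members called is thus not independent of how members were chosen. KFC males also carry label numbers that no other setting has, so setting and numbering cannot be told apart. The calls did not hold in every fit with 1 library left out. Both limits are detailed below. DESeq2, with additive terms for injection and setting in place of the 8 groups, called 2 members there as well, against 1.04% of all genes. In TN and HY 0 members passed (0% of all genes in each). At an unadjusted p under 0.05 there were 3 members each in TN and NST and 2 in HY, against 3.8%, 8.89% and 4.06% of all genes. KFC minus KF was above 0 in 13 of 68 members in TN (median -0.10 on the log2 scale), 47 in NST (median 0.09) and 35 in HY (median 0.00). Of all tested genes 49.9%, 47.2% and 50.7% were above 0, and their medians were within 0.01 of 0. Members varied together within a region, so these counts are not counts of independent signs, and no test is given on them.

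ENSTGUG00000013336 was higher in NST of KFC males than of KF males. Over both injections its NST median was 58.5 CPM in KFC, 44.7 in ISO, 25.7 in NF and 25.1 in KF. It stood at 54.9, 59.8, 79.9, 68.6 and 57.7 CPM in the 5 LPS males and at 59.2, 41.8, 49.0, 52.2 and 62.7 CPM in the 5 control males of KFC. In KF it ran from 14.7 to 50.5 CPM in 6 LPS males (median 23.2) and from 16.03 to 30.4 CPM in 6 control males (median 25.1). KFC and KF overlapped only through 2 KF males given LPS, at 46.3 and 50.5 CPM. The log2 change was 1.21 (SE 0.27, edgeR adjusted p = 0.0254, n = 10 and 12). In TN it was 0.02 (SE 0.10, adjusted p = 0.995) and in HY 0.30 (SE 0.24, adjusted p = 0.985).

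ENSTGUG00000009647 rose likewise. In NST of KFC it stood at 21.8, 24.6, 28.6, 25.7 and 29.8 CPM in LPS males and at 23.9, 22.2, 25.5, 26.3 and 22.5 CPM in control males. In KF it stood at 9.34, 8.17, 25.2, 31.03, 6.91 and 10.7 CPM in the 6 LPS males and ran from 7.73 to 12.03 CPM in 6 control males (median 9.74). The high values of 25.2 and 31.03 CPM came from males 33 and 35, the same that were high for ENSTGUG00000013336. The log2 change was 1.10 (SE 0.27, edgeR adjusted p = 0.0491, n = 10 and 12), against 0.05 in TN (SE 0.07, adjusted p = 0.991) and 0.19 in HY (SE 0.20, adjusted p = 0.985). The call of ENSTGUG00000009647 was the less stable one. When each of the 46 NST libraries was left out in turn, ENSTGUG00000013336 stayed called in 39 cases and ENSTGUG00000009647 in 14. Neither was called in 7 cases, in which 0 to 44 of all genes were called, against 68 with all libraries. The 7 were KFC males 67 (LPS), 62 and 70 (control), and KF males 30 and 32 (LPS), 31 and 34 (control).

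In most NST libraries both genes stood either in the range of TN or at the level of most HY libraries. In TN ENSTGUG00000009647 ran from 20.4 to 31.9 CPM, and in HY it was at most 13.1 CPM except in 4 libraries at 17.9 to 25.5 CPM. NST libraries spanned 6.17 to 31.03 CPM, with 21 of 46 at 20.4 CPM or more, 23 at 13.1 CPM or less and 2 between, at 17.5 and 17.7 CPM. Of the 46 NST libraries, 23 were above 15.9 CPM, the midpoint of the HY and TN means of control males on the log2 scale. These were all 10 KFC libraries, 2 of 12 from KF, 6 of 12 from ISO and 5 of 12 from NF. For ENSTGUG00000013336 it was 24 of 46 above its midpoint of 34.4 CPM, again with all 10 of KFC and 2 of 12 of KF. Its NST libraries stood at 39.3 CPM or more, the range of TN, in 22 cases, at 31.3 CPM or less, as most of HY, in 22, and between in 2, at 38.8 and 39.1 CPM. The mean of these genes in NST, which placed them in the gradient, thus averaged over libraries of widely different level. Their levels in NST had an r of 0.911 with each other. The mean of the pair, with each gene scaled to its own spread, had an r of -0.37 to 0.21 with the 66 other members. Unlike in the correlations above, group means were not removed here or in the r with the pair given below.

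**Figure D5:**
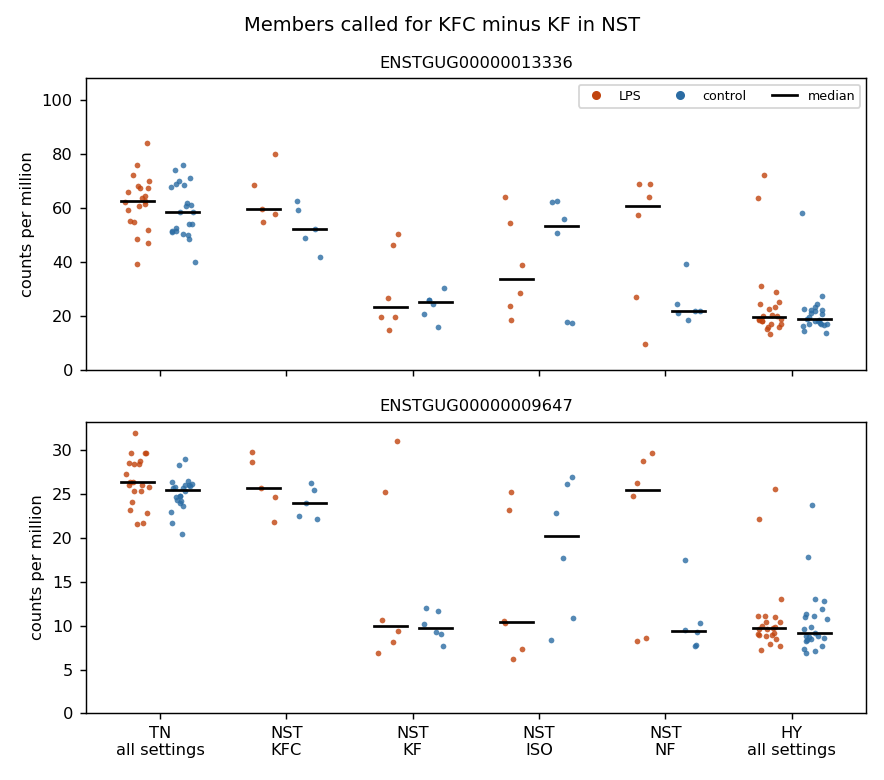
Level in CPM of the 2 members called for KFC minus KF in NST, with TN on the left, NST by social setting in the middle and HY on the right, LPS libraries (orange) left of control libraries (blue), and a bar at the median. In NST all 10 KFC libraries sit at the level of TN, 10 of 12 KF libraries sit at the level of most HY libraries, and ISO and NF libraries are split.

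A small group of other genes moved with these members. Among the 14384 other genes tested in NST, 12 had an r above 0.8 with the mean of the pair, and none of the 12 was a member. The 12 were 1.40 to 4.92 higher in TN than in HY on the log2 scale in control males. Together they took 2.37% to 7.14% of all counts in TN (median 4.32%), 0.28% to 7.24% in NST (median 1.598%) and 0.276% to 6.68% in HY (median 0.408%). In NST they took 4.13% to 7.21% of counts in KFC (median 6.20%) and 0.28% to 6.14% in KF (median 0.356%). The pair was named for its difference between KFC and KF, and the 12 genes were picked by r over these same NST libraries. Their difference between KFC and KF is thus not a separate observation. The level of the pair in NST also had an r of 0.52 with the log2 total count of the library. In HY the same 3 males, 5 and 8 (ISO) and 67 (KFC), had high levels of both members. The KFC males carry the numbers 62 to 71 in the labels, with no other setting among these numbers. The part of the 12 genes and the total count in the difference between KFC and KF was not tested. The numbering cannot be told apart from the setting, since only KFC males carry these numbers.

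For the opposite direction, the members with the smallest unadjusted p among lower values in KFC were ENSTGUG00000000635 in HY and ENSTGUG00000004993 in TN, and neither passed edgeR's adjusted threshold. ENSTGUG00000004993 is one of the members that DESeq2 called in TN for setting over both injections, a test of all 4 settings. In HY ENSTGUG00000000635 ran from 71.9 to 97.8 CPM in 10 KFC males (median 82.1) and from 80.5 to 104 CPM in 12 KF males (median 87.7). The log2 change was -0.19 (SE 0.07, edgeR adjusted p = 0.985). In TN ENSTGUG00000004993 ran from 34.6 to 50.1 CPM in 10 KFC males (median 43.96) and from 40.0 to 61.8 CPM in 12 KF males (median 48.2). Its log2 change was -0.21 (SE 0.09, edgeR adjusted p = 0.991). The groups overlapped in both cases.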

How the data were processed

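Libraries from polyadenylated RNA were, per the labels' protocols, made with a NEBNext Ultra kit. The authors deposited raw counts, whole numbers of reads for each of 18618 identifiers. Per the submitters' processing notes, HISAT2 and HTSeq 0.6.1 were used. The genome build is not given in the sources used here, nor is the use of strand, so overlapping or near-identical genes may share reads. The labels code regions as HY, NST (or NS) and TN, and the control injection as S where the design text writes C. Libraries of different regions that carry the same number were treated as coming from 1 male, which makes the replicates of a group separate males.

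Members followed the rule on log2 CPM from column totals. The members and lists were chosen with earlier results of these data known. Gene lists and cell type markers could not be used, since 0 identifiers matched a reference table. Named genes were the 2 members with the largest TN minus HY difference and the 2 with the smallest unadjusted p among lower values for KFC minus KF. The 2 members called for KFC minus KF in NST fell outside this rule and were named after their values were seen.

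Tests were fitted to all genes of a region with edgeR 4.0.16 in R 4.3.3 (filterByExpr with minimum count 10 and minimum total 15, TMM scaling, robust quasi-likelihood, 8 groups). The dependence of region differences on setting was fitted in control males, and also in males of both injections, with the male as a block. Each test was 2-sided, and p-values were adjusted by Benjamini-Hochberg over all genes tested and a threshold of 0.05. The test on setting and injection together used limma 3.58.1 (prior count 2) on differences within males. The edgeR models were also run on simulated counts with a fixed dispersion and no effect of male. The limma and DESeq2 models were not.

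Per the design text, the regions were dissected out of the same brains. That a shared number marks 1 male was assumed, since the labels do not say so outright. Deviations from group means of libraries with the same number had a median r across genes of 0.542 for TN with NST, 0.522 for TN with HY and 0.578 for NST with HY, over 0.1 in 42 of 43, 40 of 42 and 42 of 45 males. The exceptions were males 32 and 33 for both pairs with HY, and male 19 for both pairs with NST. These males were kept in the comparisons within males. As a check for duplicated libraries, chi-square per gene was at least 8.81 over 2928 pairs within regions, with a median of 31.3, and none were merged. Alternatives were DESeq2 1.42.0, RLE scaling as computed by edgeR, no filter, no block, males of both injections, another offset, means over LPS libraries, and leaving out libraries. Tables and figures were made with pandas 2.3.3 and matplotlib 3.10.9 in Python 3.11.15. The spread between libraries beyond counting error, as fitted by edgeR and relative to the level, had a median over members of 0.28 in TN, 0.27 in NST and 0.23 in HY. With 1 library per male and region, differences between males cannot be told apart from those of dissection or library preparation.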

Additional observations from a re-analysis of the deposited data

Results flagged for a closer look

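In NST of control males paired with an unfamiliar female (NF), the library of male 58 lay far above the other 5 for both members that were higher in KFC than in KF males. It stood at 39.1 CPM for ENSTGUG00000013336, where the others ran from 18.5 CPM and had a median with it of 22.0 CPM, and at 17.5 CPM for ENSTGUG00000009647, where the median was 9.38 CPM. The gap to the nearest library exceeded Dixon's critical value for 6 samples in both cases. The 2 genes move together in NST, so these are not separate observations. They were the only such gaps among 40 groups looked at, 24 of them for the mean over members. Chance gives about 1 in 20 where values follow 1 normal spread. Most NST libraries stood at 1 of 2 levels for these genes, so that rate does not apply to them. The library of male 58 was 1 of the 2 between these levels for each gene.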

How the results depend on the processing

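The number of members depends on the scaling. It was 114 with TMM (62 shared with the 68) and 109 with RLE (63 shared), since these scalings move the median TN minus HY of all genes from -0.15 to -0.01 and -0.03 on the log2 scale. Relative to that median the 68 members stood 1.33 higher in each case. This follows from arithmetic, since each scaling moves all genes of a library alike. It was 71 with an offset of 2 counts (66 shared), 48 with means over LPS libraries (32 shared), 63 without the libraries that stood apart (57 shared), and 66 to 75 when 1 library was left out. Median steps then ran from 0.62 to 0.67 for NST minus HY and from 0.53 to 0.57 for TN minus NST, and median r between members from 0.124 to 0.151 in TN, 0.389 to 0.421 in NST and 0.129 to 0.159 in HY. For KFC minus KF in NST, 1 member was called with no filter on low counts, and 0 to 2 when 1 library was left out. For the dependence of steps on setting, 0 to 2 were called for NST minus HY (2 without male 5 or 58) and 0 to 2 for TN minus NST (2 without male 13 or 58, 1 without male 12 or 5). Of all genes, 9 were called for NST minus HY without male 5 and 9 without male 58. For TN minus NST 13 of all genes were called without male 58, 9 without male 12, 9 without male 13 and 8 without male 5. With no replicate block, 0 members were called for each of the 3 region differences, as with the pairing by male. With DESeq2, 2 members were called for setting in control NST (0.243% of all genes), and for setting over both injections 1 in NST (0.966%) and 2 in TN (0.308%). The cause of these changes was not tested. In all, 79 values under other settings stayed within 1.5 times the reported count or within the spread, and 6 did not. The numbers were 1103 and 38 when 1 library or male was left out. Many of these values could hardly move, since a count of 0 that stayed 0 was taken as unchanged. Median steps were set against the wide spread between males. The tally is thus no measure of how stable the calls are. For KFC minus KF in NST, 2 members were called in 14 of 46 such cases, 1 in 25 and 0 in 7.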
